A study of Mus musculus with 6 samples.

Results

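Chemokines are small secreted proteins that direct the migration of leukocytes. The transcripts described here are those of 10 chemokine ligand genes, Ccl2, Ccl3, Ccl4, Ccl5, Ccl6, Ccl9, Cxcl2, Cxcl10, Cxcl12 and Cxcl16, chosen by symbol to cover ligands made by myeloid, lymphoid and stromal cells. All 10 were found among the 30733 symbols of the expression tables. RNA was sequenced from cells of the bone marrow that carry the label haematopoietic stem cell (HSC, the cell that renews all blood lineages). The mice were wild type (WT) and had received 5 Gy of total body irradiation in both groups. The cells had been sorted by MHC class II (MHCII), which displays peptides on the cell surface for CD4 T cells, into MHCII-hi and MHCII-lo fractions with 3 libraries each. The sources used here do not give the time after irradiation, the ages of the mice, the sort gates or any pooling of animals, and no unirradiated group was analysed here. Whether the replicates are separate mice is not in the labels, so each p-value measures the spread of these 6 libraries only, and part of that spread may be technical.

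Each ligand acts through G protein-coupled receptors, and most ligands share receptors. Ccl3 and Ccl5 bind Ccr1, and Ccl4 is a close relative of Ccl3; Ccl6 and Ccl9 are rodent CC chemokines that act on Ccr1. Ccl2 binds Ccr2 and mobilises monocytes from the marrow, Cxcl2 binds Cxcr2 and recruits neutrophils, and Cxcl10 is an interferon-induced ligand of Cxcr3. Cxcl12, made mainly by marrow stromal cells, retains HSCs in their niche through Cxcr4, and Cxcl16 is a membrane-bound ligand of Cxcr6 that can be shed. The families are named for the first cysteines of the mature protein, which are adjacent in CC chemokines and separated by a single residue in CXC chemokines. The coding runs below, read 5′ to 3′ from the GENCODE M21 transcripts, show that signature for 9 of the 10 genes, with the cysteine codons in capitals.
Ccl4: cccacttccTGCTGTttctcttacacc
Ccl5: accactcccTGCTGCtttgcctacctc
Ccl6: tcttcagacTGCTGCttctcttatgcc
Ccl9: tcttcagatTGCTGCctgtcctataac
Ccl2: ccactcaccTGCTGCtactcattcacc
Cxcl2: gaactgcgcTGTcaaTGCctgaagaccctg
Cxcl10: acggtccgcTGCaacTGCatccatatcgat
Cxcl12: agctaccgaTGCcccTGCcggttcttcgag
Cxcl16: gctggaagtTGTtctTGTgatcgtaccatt
The capitals are contiguous in the 5 CC genes shown and interrupted by 1 codon in the 4 CXC genes. The run lies in exon 2 of the transcript in 7 of these genes (for Ccl4, GRCm38 chr11:83663473-83663499, plus strand), and in Ccl6 and Ccl9 it lies in exon 3 (chr11:83589374-83589400 and chr11:83575914-83575940, minus strand). The runs of Ccl6 and Ccl9 both open with the bases tcttcaga before the cysteine codons.

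The values are FPKM (fragments counted per kilobase of a transcript and corrected for library depth), a scale on which levels of different genes can be compared. The depth of a library was estimated from the first step of its FPKM values and lay between 2.06e+07 and 3.21e+07 fragments. The class II genes H2-Eb1, H2-Ab1 and H2-Aa and the invariant chain gene Cd74 followed the sort, with summed FPKM of 563 to 581 in MHCII-hi and 21.2 to 21.5 in MHCII-lo libraries. Of 12 HSC markers, 8 lay under the expression minimum of a mean of 1 FPKM, among them Mecom, Fgd5, Procr and Slamf1, none of which passed a mean of 0.497 FPKM in either group. Markers of mature cells were abundant and differed between the groups: all 12 neutrophil markers were lower in MHCII-hi (summed FPKM 1.555e+04 to 1.594e+04 against 3.774e+04 to 3.842e+04), all 8 eosinophil markers were higher (7613 to 7774 against 2799 to 2855), and immunoglobulin genes took 23.4% to 23.7% of summed FPKM in MHCII-hi and 0.493% to 0.502% in MHCII-lo. In such bulk samples, fewer cells of a type and less RNA per cell cannot be told apart. Over all genes, 7093 of 12110 tested differed between the groups (58.6%; 25.5% higher and 33.1% lower in MHCII-hi) in limma at 0.05 after Benjamini-Hochberg adjustment, and 65.8% had groups that did not overlap. The split between higher and lower depended on scaling: 43.5% of the called genes were higher as deposited, 69.7% when libraries were scaled to their summed FPKM without immunoglobulin genes, 34.7% after quantile normalization and 22.7% when scaled to summed FPKM, and the median log2 change of all tested genes moved from -0.04 to 0.11, -0.10 and -0.21.

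Chemokine ligand transcripts were mostly higher in MHCII-hi cells. Of the 10 genes, 7 were higher (Ccl3, Ccl4, Ccl5, Ccl6, Cxcl2, Cxcl10 and Cxcl12), Ccl2 was lower, Ccl9 did not pass the test and Cxcl16 lay under the minimum and was not tested. Over all tested genes 25.5% were called higher, 33.1% lower and 58.6% in either direction. For 8 of the 9 tested members the libraries of both groups were fully separate, against 65.8% of all tested genes. Cxcl12 reached the minimum only through its level in MHCII-hi. The median log2 change of the 9 tested members, on the log2(FPKM + 1) scale and MHCII-hi minus MHCII-lo throughout, was 0.88, against -0.04 over all tested genes. The 10 genes summed to 808 ± 22.1 FPKM in the MHCII-hi libraries against 476 ± 7.54 FPKM (SD, n = 3), which was 0.211% and 0.143% of all FPKM.

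**Figure D1:**
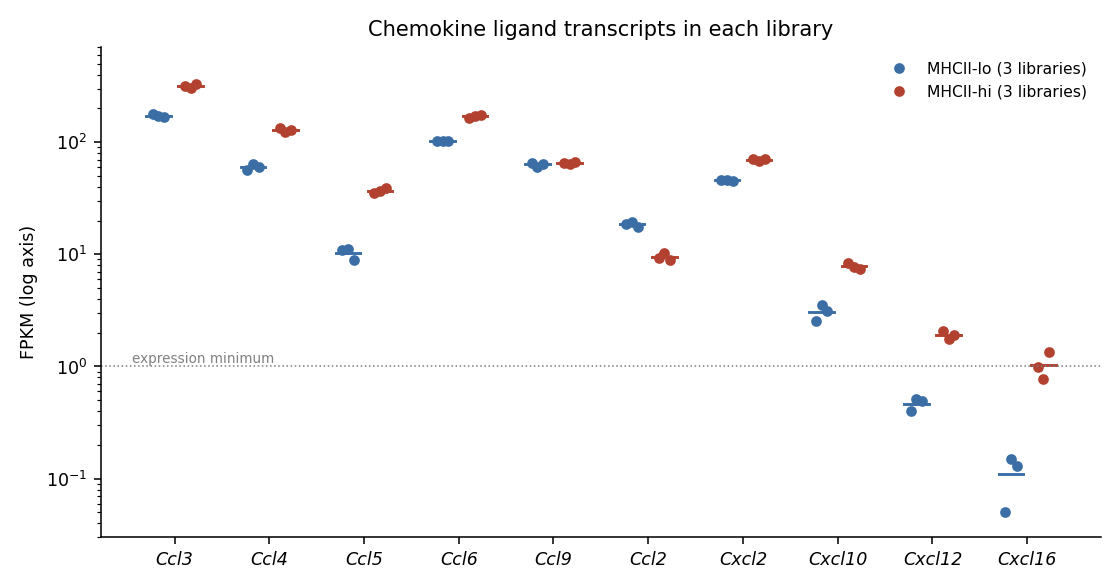
FPKM on a log axis for the 10 chemokine ligand genes, 1 point per library, with a short line at each group mean (blue MHCII-lo, red MHCII-hi, 3 libraries each) and a dotted line at the minimum of 1 FPKM. Levels span from Ccl3, at 304 to 332 FPKM in MHCII-hi, to Cxcl16, at 0.05 to 0.15 FPKM in MHCII-lo, and the groups overlap only for Ccl9.

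The levels ranked alike at the top of both groups. In MHCII-lo the order of mean FPKM was Ccl3, Ccl6, Ccl9, Ccl4, Cxcl2, Ccl2, Ccl5, Cxcl10, Cxcl12 and Cxcl16, in which the neighbours Ccl9 (60.6 to 65.8) and Ccl4 (57.0 to 63.5) overlapped. In MHCII-hi it was Ccl3, Ccl6, Ccl4, Cxcl2, Ccl9, Ccl5, Ccl2, Cxcl10, Cxcl12 and Cxcl16, and no neighbours overlapped. Ccl9 thus stood above Ccl4 and Cxcl2 in MHCII-lo and below them in MHCII-hi, and Ccl2 and Ccl5 changed places. Ccl3, Ccl4, Ccl6, Ccl9 and Cxcl2 together made up 92.7% to 93.1% of the FPKM of the 10 genes in MHCII-hi and 92.8% to 93.5% in MHCII-lo, so this share overlapped between groups. Ccl3 was among the abundant transcripts of these cells, with 171 tested genes above it in MHCII-hi and 254 in MHCII-lo.

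The highest levels were those of CC ligands. Ccl3 (also called MIP-1 alpha; chromosome 11, 83647844 to 83649355), an inflammatory chemokine known to restrain the cycling of blood progenitors, was at 317, 304 and 332 FPKM in MHCII-hi and at 177, 172 and 166 FPKM in MHCII-lo. Every MHCII-hi library lay above every MHCII-lo library, and the mean was 1.85-fold higher (log2 change 0.88, SE 0.04, limma adjusted p = 3.05e-06). Its neighbour Ccl4 (MIP-1 beta; chromosome 11, 83662584 to 83664683) was at 133, 123 and 129 FPKM against 57.0, 63.5 and 60.5 FPKM. The rise of Ccl4 was 2.12-fold (log2 change 1.07, SE 0.05, limma adjusted p = 3.73e-06). The ratio of Ccl3 to Ccl4 FPKM was 2.48 ± 0.0955 against 2.85 ± 0.217 (SD, n = 3), and the groups did not overlap (exact permutation test, two-sided, p = 0.1, and 3 against 3 libraries can give no smaller value). Markers of other cell types moved beside these ligands. Of 10 basophil and mast cell markers, 6 were higher, 1 did not pass and 3 lay under the minimum, among them Tpsb2, listed at 0 in all libraries, and their summed FPKM was 984 to 997 against 553 to 571. The basophil proteases Prss34 and Mcpt8 were 1.97-fold and 1.76-fold higher. Of 10 dendritic cell markers, 7 were higher and 3 lay under the minimum, with summed FPKM of 79.7 to 88.9 against 34.4 to 35.3 and none at 0 in all libraries. Of 12 B and plasma cell markers, 9 were higher and 3 lay under the minimum, with summed FPKM of 1.94e+04 to 1.993e+04 against 318.9 to 338.9. The part of these 3 lists in the Ccl3 and Ccl4 results was not tested.

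Ccl5 (RANTES; chromosome 11, 83525778 to 83530518), which T cells, NK cells and platelets make and which draws T cells and eosinophils, had the largest log2 change of the 9 tested members with a pseudocount of 1. With a pseudocount of 0.1 the log2 changes of Ccl5 and Cxcl12 were 1.84 and 1.83, and by the ratio of mean FPKM Cxcl12 was ahead, at 4.09 against 3.60. It was at 34.9, 36.6 and 39.3 FPKM in MHCII-hi and at 10.9, 11.1 and 8.88 FPKM in MHCII-lo, a 3.60-fold difference with no overlap (log2 change 1.75, SE 0.08, limma adjusted p = 5.95e-06). By this Ccl5 moved from above 63.2% of the tested genes in MHCII-lo to above 89.5% in MHCII-hi. T and NK cell markers moved with it: 12 of 14 were higher, Nkg7 did not pass (and was lower or higher under other scalings), Cd3e lay under the minimum, none was at 0 in all libraries, and their summed FPKM was 252 to 262 against 176 to 187. The part of these markers in the Ccl5 result was not tested. The tested genes whose centred log2 profiles over the 6 libraries were most like that of Ccl5 were Gimap4, a lymphocyte GTPase gene (root mean square difference 0.030), the T cell costimulatory receptor Cd28 (0.072) and the eosinophil ribonuclease Ear2 (0.078), a member of a family of near-identical copies whose reads may be split. Cd28 and Ear2 also stand on the T cell and eosinophil marker lists. Cd28 was at a mean of 5.06 FPKM in MHCII-hi and 0.677 FPKM in MHCII-lo, a 7.48-fold difference against 3.60-fold for Ccl5. The pseudocount of 1 brings the log2 change of Cd28 down to 1.85, near that of Ccl5. Gimap4, the closest, was at 17.5, 19.5 and 20.8 FPKM against 5.21, 5.30 and 4.28 FPKM.

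Ccl6 and Ccl9, adjacent paralogues that myeloid cells express, differed in their response. Ccl6 (chromosome 11, 83587882 to 83593087) was at 165, 171 and 175 FPKM in MHCII-hi and at 103, 103 and 102 FPKM in MHCII-lo. That was a 1.66-fold rise without overlap (log2 change 0.73, SE 0.03, limma adjusted p = 1.21e-06). Ccl9 (chromosome 11, 83572919 to 83578636) was at 64.9, 63.6 and 65.9 FPKM against 65.8, 60.6 and 63.5 FPKM, and its groups overlapped. Its log2 change was 0.03 (95% interval -0.05 to 0.12, limma adjusted p = 0.432) on the deposited scale. That call depended on scaling: the log2 change of Ccl9 was 0.21 (limma adjusted p = 0.00191) when libraries were scaled to summed FPKM without immunoglobulin genes and -0.17 (limma adjusted p = 0.00418) when scaled to summed FPKM. The ratio of Ccl6 to Ccl9 does not depend on the scale of a library, and it was 2.63 ± 0.0771 against 1.62 ± 0.0679 (SD, n = 3; exact permutation test, two-sided, p = 0.1, again the lowest value possible). Monocyte and macrophage markers moved unevenly beside this pair: 6 were lower, 2 higher, 1 did not pass and 5 lay under the minimum, with summed FPKM of 2176 to 2248 against 3203 to 3223 and none at 0 in all libraries. Their part in these results was not tested. The library kit was stranded, but the sources used here do not give whether counting used the strand, so reads of a gene and of one opposite to it may be mixed. E230016K23Rik, a processed transcript annotated on the strand opposite to Ccl6, was at 0.95 to 1.23 FPKM in MHCII-hi and 0.28 to 0.63 FPKM in MHCII-lo.

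These 5 CC genes lie within 139 kb of chromosome 11. From the start of Ccl5, the start of Ccl9 was 48.1 kb away, that of Ccl6 62.6 kb, that of Ccl3 119 kb and that of Ccl4 132 kb. The log2 changes along this stretch were 1.75, 0.03, 0.73, 0.88 and 1.07, so the gene without a called change sat between genes with called rises.

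**Figure D2:**
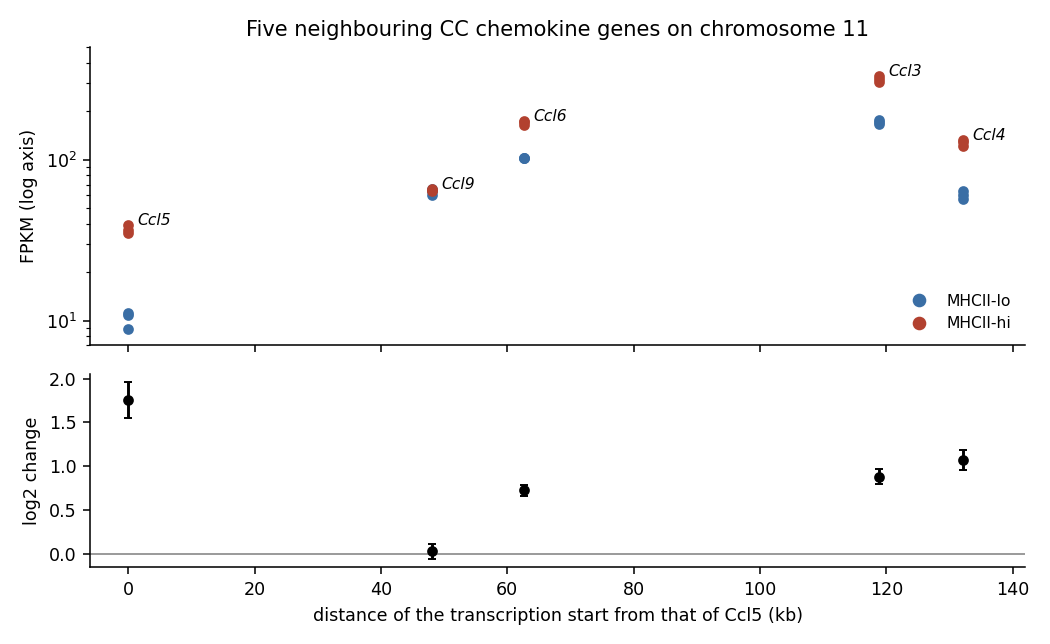
Upper panel, FPKM on a log axis of each library (blue MHCII-lo, red MHCII-hi) for Ccl5, Ccl9, Ccl6, Ccl3 and Ccl4 at the distance of their transcription starts from that of Ccl5 in kb. Lower panel, their log2 changes (MHCII-hi minus MHCII-lo) with 95% limma intervals, all above 0 except that of Ccl9, which spans -0.05 to 0.12.

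Ccl2 (MCP-1; chromosome 11, 82035571 to 82037453) went the other way. It was at 9.27, 10.4 and 8.91 FPKM in MHCII-hi and at 18.7, 19.4 and 17.6 FPKM in MHCII-lo. All MHCII-hi libraries lay below all MHCII-lo libraries, and the mean was 1.95-fold higher in MHCII-lo (log2 change -0.90, SE 0.06, limma adjusted p = 3.13e-05). Of all tested genes 33.1% were called lower. Ccl2 lies 1.5 Mb from Ccl5 and made up 1.18% ± 0.125 of the FPKM of the 10 genes in MHCII-hi against 3.90% ± 0.134 (SD, n = 3). Monocyte markers that were lower in MHCII-hi beside it included Ly6c2, Fcgr1, Cd14, Vcan and Lyz2; Vcan, a proteoglycan gene of classical monocytes, was at 2.49 ± 0.189 against 13.9 ± 0.271 FPKM. Csf1r, the receptor for macrophage colony-stimulating factor, and Adgre1, which encodes F4/80, were higher, at 29.8 ± 0.118 against 23.0 ± 0.192 FPKM and 22.9 ± 1.20 against 17.4 ± 0.254 FPKM. The part of these markers in the Ccl2 result was not tested. Gm17268 is annotated on the opposite strand over the whole of Ccl2 and has no row in the tables. The profiles nearest to that of Ccl2 were those of Timm8a1, a mitochondrial import gene (root mean square difference 0.037), Ugt1a7c (0.048), whose last exons are shared by the whole Ugt1a family so that its value is uncertain, and Glipr2 (0.060).

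The CXC ligands among the 10 members all rose where they were tested. Cxcl2 (MIP-2; chromosome 5, 90903871 to 90905938) was at 70.6, 68.4 and 70.9 FPKM in MHCII-hi and at 46.4, 46.2 and 44.7 FPKM in MHCII-lo. Its rise was 1.53-fold (log2 change 0.60, SE 0.03, limma adjusted p = 3.99e-06), the smallest of the 7 called rises as deposited. After quantile normalization the log2 changes of Ccl6 (0.41) and Ccl3 (0.48) were smaller than that of Cxcl2 (0.53). It rose beside neutrophil markers that fell, all 12 of them and none at 0, so the level of this neutrophil attractant and those of neutrophil markers moved in opposite directions. Cxcl10 (IP-10; chromosome 5, 92346638 to 92348889) was at 8.44, 7.75 and 7.41 FPKM against 2.55, 3.50 and 3.12 FPKM. That was a 2.57-fold rise (log2 change 1.13, SE 0.09, limma adjusted p = 7.77e-05) resting on an estimated 360 to 609 fragments against 130 to 191. Art3, annotated on the opposite strand over Cxcl10, was at 0.02 to 0.15 FPKM.

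The remaining CXC members were scarce. Cxcl12 (SDF-1; chromosome 6, 117168535 to 117181367) was at 2.07, 1.77 and 1.89 FPKM in MHCII-hi and at 0.40, 0.51 and 0.49 FPKM in MHCII-lo. The ratio of means was 4.09, and the log2 change of 0.99 (SE 0.08, limma adjusted p = 8.37e-05) understates it because of the pseudocount of 1. Only 12.7% of tested genes lay below Cxcl12 in MHCII-hi and 0.834% in MHCII-lo. Of 12 stromal and endothelial markers 11 lay under the minimum, and the summed FPKM of the list was 4.95 to 5.63 against 1.81 to 1.96. The remaining marker, Pdgfrb, a growth factor receptor of pericytes and stromal cells, was higher with Cxcl12, at 3.03 ± 0.270 against 1.34 ± 0.200 FPKM (log2 change 0.79, limma adjusted p = 3.38e-04), and lay above Cxcl12 in both groups. The niche marker Lepr was at 0.25 ± 0.0436 against 0.0467 ± 0.0252 FPKM, and Col3a1 was listed at 0 in every MHCII-lo library. Their part in the Cxcl12 result was not tested. Cxcl16 (chromosome 11, 70453983 to 70459984) was at 0.98, 0.78 and 1.34 FPKM against 0.05, 0.15 and 0.13 FPKM, an estimated 49 to 95 fragments against 3 to 11. Its groups did not overlap, but its mean lay under the minimum. Zmynd15, on the opposite strand over its end, was at 0 to 0.07 FPKM. With no minimum its log2 change was 0.87 (limma adjusted p = 0.00227).

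**Figure D3:**
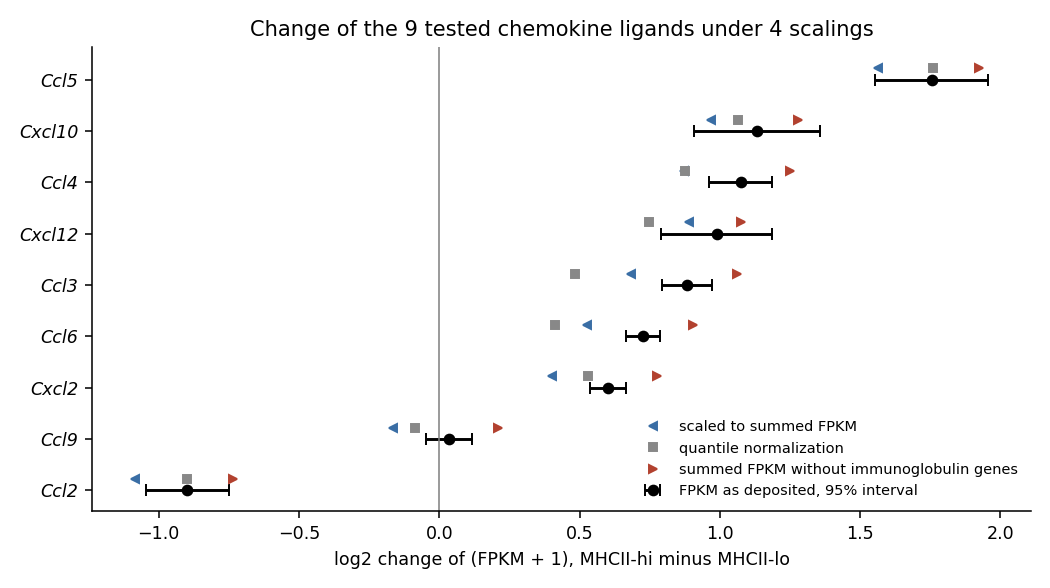
Log2 change of (FPKM + 1), MHCII-hi minus MHCII-lo, of the 9 tested chemokine ligands, ordered by size, with 95% limma intervals (black) and the same change under 3 other scalings (coloured symbols). Ccl5 is highest at 1.75 and Ccl2 lowest at -0.90 as deposited; Ccl9 is the gene whose sign differs between scalings.

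Promoter sequences were available for Ccl3, Ccl6, Ccl9, Cxcl2, Cxcl10 and Cxcl12 and not for Ccl2, Ccl4, Ccl5 and Cxcl16. They were searched because chemokine genes are textbook targets of NF-kB, interferon-activated factors and AP-1. The windows are the 250 bases before the RefSeq start (GRCm38.p6), and 4 motifs were searched on both strands with overlaps counted: the NF-kB consensus decamer, the core of the interferon-stimulated response element (GAAA, any pair of bases, GAAA), the AP-1 site (TGANTCA) and the TATA box (TATAAA). Of 32851 windows of this length in the RefSeq table, 9.55% held the first, 2.98% the second, 6.75% the third and 12.4% the fourth. The windows of Cxcl10 (chr5:92348890-92349139, minus strand), Cxcl2 (chr5:90903649-90903870, plus strand, ending before the first annotated exon), Ccl9 (chr11:83578637-83578886, minus strand) and Ccl3 (chr11:83649379-83649628, minus strand) are shown because they span a high and a low response, with matches in capitals.
Cxcl10: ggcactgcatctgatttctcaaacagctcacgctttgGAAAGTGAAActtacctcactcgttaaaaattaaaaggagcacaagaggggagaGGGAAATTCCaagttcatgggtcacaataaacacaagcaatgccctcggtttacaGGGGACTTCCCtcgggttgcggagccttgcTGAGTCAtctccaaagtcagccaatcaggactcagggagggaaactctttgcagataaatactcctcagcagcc
Cxcl2: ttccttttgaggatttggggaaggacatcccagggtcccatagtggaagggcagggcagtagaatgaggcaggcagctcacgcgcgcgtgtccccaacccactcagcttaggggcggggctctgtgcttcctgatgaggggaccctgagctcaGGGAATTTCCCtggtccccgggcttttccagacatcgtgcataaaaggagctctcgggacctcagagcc
Ccl9: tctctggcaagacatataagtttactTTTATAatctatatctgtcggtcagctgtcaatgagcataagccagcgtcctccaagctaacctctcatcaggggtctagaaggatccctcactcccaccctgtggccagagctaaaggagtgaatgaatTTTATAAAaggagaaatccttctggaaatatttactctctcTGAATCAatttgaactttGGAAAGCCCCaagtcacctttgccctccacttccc
Ccl3: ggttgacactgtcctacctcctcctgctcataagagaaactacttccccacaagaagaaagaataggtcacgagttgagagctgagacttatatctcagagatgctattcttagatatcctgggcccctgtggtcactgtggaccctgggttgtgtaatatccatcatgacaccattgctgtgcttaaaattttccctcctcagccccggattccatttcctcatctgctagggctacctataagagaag
Cxcl10 held 3 NF-kB decamers, of which a pair overlap, 1 interferon element and 1 AP-1 site. Cxcl2 held 2 overlapping NF-kB decamers at positions -97 to -87 from the start. Ccl9, which had no called change, held 1 NF-kB decamer, 1 AP-1 site and 3 TATA matches, of which a pair overlap, while Ccl3, Ccl6 and Cxcl12, which rose, held none of the 4 motifs in these windows. The GC content of the windows ran from 43.6% in Ccl9 to 64.4% in Cxcl12, against a median of 52.4% over all windows.

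The other chemokine ligands were mostly silent or near it. Of 30 further ligand genes, 22 were in the tables, 19 of these lay under the minimum and 3 were tested. Xcl1 (lymphotactin), the ligand of Xcr1 made by NK and T cells, was at 13.1, 14.4 and 14.9 FPKM in MHCII-hi and at 2.95, 4.10 and 3.37 FPKM in MHCII-lo (log2 change 1.76, SE 0.10, limma adjusted p = 1.16e-05). Gm20743, on the opposite strand over Xcl1, was at 1.22 to 1.42 FPKM against 0.21 to 0.59 FPKM. The platelet chemokine Ppbp was at 11.3, 11.4 and 12.6 FPKM against 3.88, 2.62 and 2.89 FPKM (log2 change 1.64, SE 0.11, limma adjusted p = 3.24e-05). Pf4, the other platelet chemokine, was at 20.6 ± 0.911 against 18.4 ± 1.34 FPKM (SD, n = 3) and did not pass (log2 change 0.16, limma adjusted p = 0.0567), although it passed with quantile, upper-quartile and immunoglobulin-free scaling, with a minimum of 5 FPKM and without MHCII-lo replicate 2. Thus 2 of the 3 rose, against 25.5% called higher over all tested genes. The 10 members made up 94.1% to 94.2% of all chemokine ligand FPKM in MHCII-hi and 94.4% to 94.9% in MHCII-lo. Platelet and megakaryocyte markers moved beside Ppbp, with 5 of 10 higher, 2 not past the test, 3 under the minimum and summed FPKM of 33.5 to 34.2 against 19.1 to 20.0; their part was not tested.

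The receptors of the ligands did not change in 1 direction. Of 24 signalling and atypical receptor genes, 11 were tested, of which 8 were higher and 3 lower. The shares over all tested genes were 25.5% higher and 33.1% lower. The Ccl3 and Ccl6 receptor Ccr1 was at 32.1 ± 0.823 against 78.7 ± 0.584 FPKM, 2.45-fold lower in MHCII-hi (log2 change -1.27, limma adjusted p = 9.09e-08), while these ligands rose. Cxcr2, the Cxcl2 receptor, was at 19.3 ± 0.596 against 68.3 ± 1.40 FPKM, 3.54-fold lower (log2 change -1.77, limma adjusted p = 4.44e-08), again opposite to its ligand. Ccr2 and Ccl2 were both lower, with Ccr2 at 40.8 ± 0.251 against 54.6 ± 0.963 FPKM (log2 change -0.41). Receptors of scarcer ligands were higher: Cxcr3, the Cxcl10 receptor, was at 3.32 ± 0.387 against 0.777 ± 0.227 FPKM and Cxcr6, the receptor of the untested Cxcl16, at 1.91 ± 0.397 against 0.657 ± 0.137 FPKM. Cxcr4 was the most abundant receptor, at 167 ± 3.60 against 132 ± 1.63 FPKM (log2 change 0.34, limma adjusted p = 2.82e-05, but 0.02 with adjusted p = 0.579 after quantile normalization), and exceeded its ligand Cxcl12 in every library. Ccr3, which binds Ccl5 on eosinophils, Ccr7, Cx3cr1 and Ccrl2, a non-signalling receptor, had log2 changes of 1.22, 1.01, 1.16 and 1.31 and were higher.

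**Figure D4:**
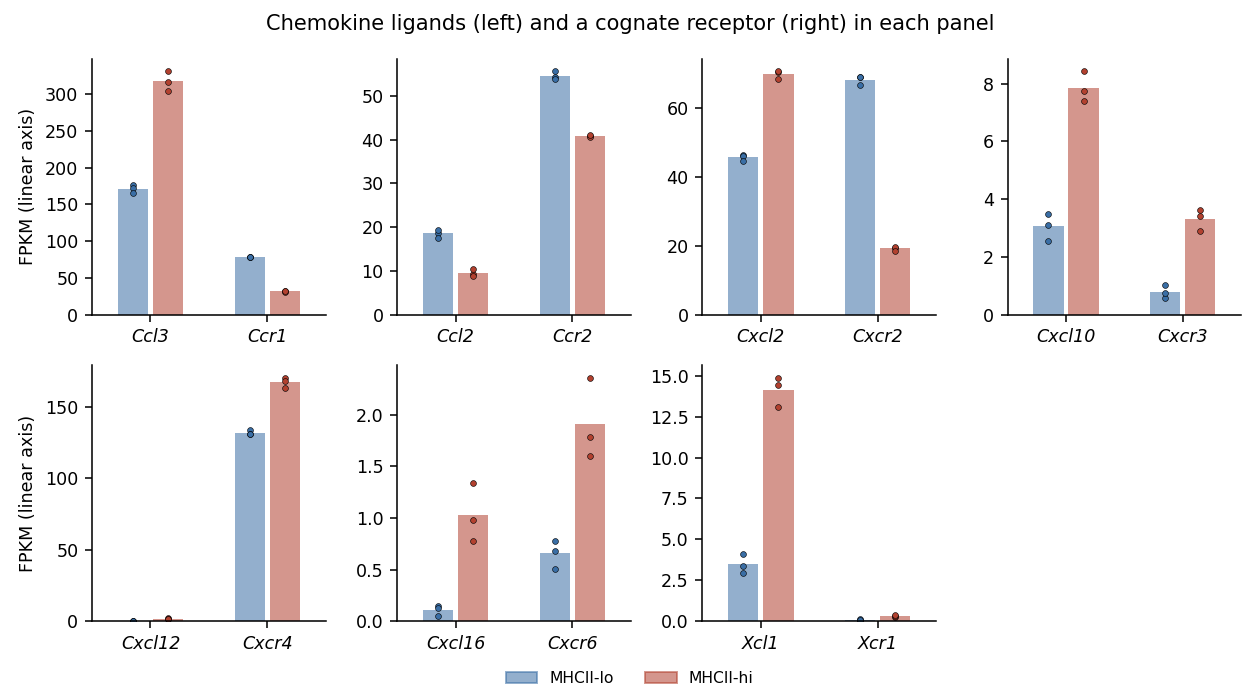
Mean FPKM (bars, linear axis from 0, each panel on its own scale) with the 3 libraries of each group as points, for a ligand on the left and a receptor of it on the right of each panel (blue MHCII-lo, red MHCII-hi). Ccl3 and Cxcl2 are higher in MHCII-hi and their receptors Ccr1 and Cxcr2 lower; Ccl2 and Ccr2 are both lower.

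Regulators of chemokine transcription and mRNA decay were mostly higher in MHCII-hi, with 15 of 19 higher, 1 lower and 3 not past the test. The shares over all tested genes were 25.5% higher and 33.1% lower. The median log2 change of the regulators was 0.59, against -0.04 over all tested genes. The NF-kB subunit Rel was at 21.1 ± 0.663 against 7.99 ± 0.0404 FPKM, and all 5 subunit genes (Rel, Rela, Relb, Nfkb1 and Nfkb2) were higher, although Rela and Nfkb1 did not pass when scaled to summed FPKM. The NF-kB target genes that restrain or modulate the pathway were higher too: Tnfaip3 at 91.2 ± 1.13 against 29.8 ± 0.283 FPKM, Nfkbia at 195 ± 3.13 against 76.5 ± 1.77 FPKM and Nfkbiz at 59.7 ± 1.19 against 33.7 ± 0.232 FPKM. Of the interferon factors, Irf1, an activator of Cxcl10, was at 24.3 ± 0.618 against 10.9 ± 0.686 FPKM, while Irf3 had a log2 change of 0.02 and did not pass (limma adjusted p = 0.772). Zfp36 (tristetraprolin), which binds AU-rich elements of cytokine and chemokine mRNAs and speeds their decay, was at 348 ± 12.4 against 197 ± 3.75 FPKM, and Zfp36l2 was at 269 ± 6.51 against 150.0 ± 3.47 FPKM. Elavl1, an mRNA-stabilising protein gene, was lower at 5.14 ± 0.265 against 6.71 ± 0.635 FPKM. Under scaling to summed FPKM without immunoglobulin genes 18 regulators were higher and 0 lower, since Elavl1 no longer passed (limma adjusted p = 0.067); scaled to summed FPKM, 13 were higher and 3 lower.

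**Figure D5:**
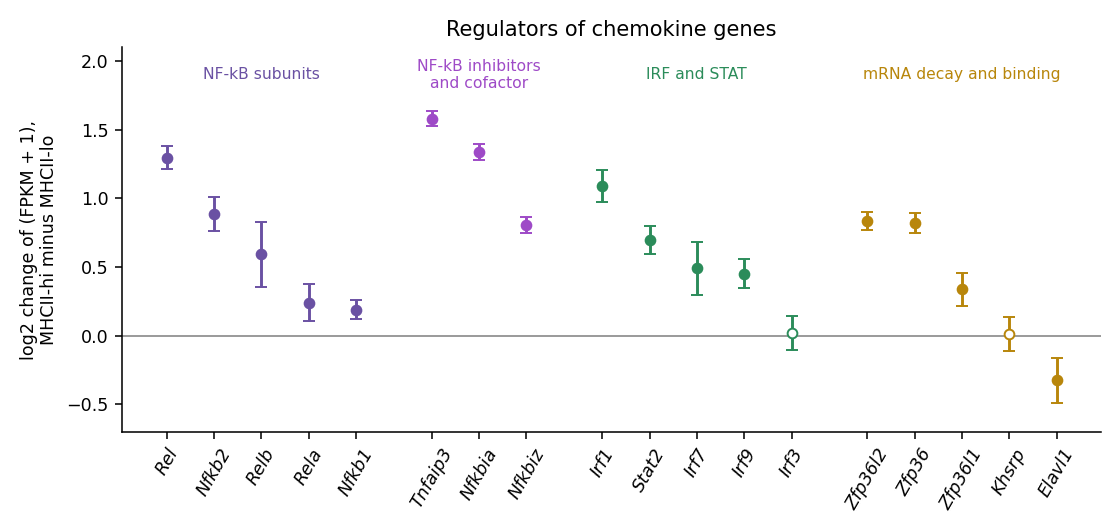
Log2 change of (FPKM + 1), MHCII-hi minus MHCII-lo, with 95% limma intervals for 18 of the 19 regulators of chemokine genes grouped by role; filled points passed the test and open points did not. Tnfaip3 is highest at 1.58, and Elavl1 is the 1 gene called lower.

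Most tested proteases known to cut or shed chemokines were lower, while most tested ligands were higher. Of 13, 8 were tested, of which 7 were lower and 1 higher. Over all tested genes 33.1% were called lower and 25.5% higher. Of the 5 proteases under the minimum, Anpep, Cpm and Mmp2 had means 6.83-fold, 6.65-fold and 2.23-fold higher in MHCII-hi, without overlap. Mmp14 and Cpn1 overlapped. Ctsg, a neutrophil granule protease, was at 666 ± 11.2 against 1446 ± 32.2 FPKM. The matrix metalloproteinases Mmp8 and Mmp9 had log2 changes of -2.04 and -1.58. Mmp8 and Mmp9 also stand among the 12 neutrophil markers, all of which were lower. The part of the neutrophil markers in the protease result was not tested. Adam10, which sheds Cxcl16 from the membrane, was at 33.9 ± 0.609 against 43.0 ± 1.0 FPKM. Dpp4, an exopeptidase that inactivates Cxcl12 and Cxcl10, rose from 3.31 ± 0.316 FPKM in MHCII-lo to 7.09 ± 0.841 FPKM in MHCII-hi. Genes that relay or end receptor signals were split evenly, with 11 higher, 11 lower and 5 not past the test among 27 tested (median log2 change 0.03), but 16 higher and 6 lower when scaled without immunoglobulin genes and 7 higher and 14 lower when scaled to summed FPKM. The largest rises among them were in Grk3 (log2 change 1.16), a kinase that desensitises receptors, and Rgs1 (1.11), which ends G protein signals, while the inhibitory G protein subunits Gnai3 (-0.51) and Gnai2 (-0.39) were lower.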

How the data were processed

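Stranded mRNA libraries were made from RNA of the sorted cells (per the labels' protocols). Per the submitters' processing notes, the tools were fastp, HISAT2 and StringTie and the build was GRCm38 (mm10); the sources used here give no settings, annotation or strand handling. Each library has 1 deposited table, and its header names no unit. The values were read as FPKM made by the authors, since they are not whole and sum to 332289 to 383600 per library. Of 30803 rows, 70 sharing a symbol with a higher row were dropped. Groups came from the titles.

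The 12110 genes whose mean reached 1 FPKM were tested with limma 3.58.1 (R 4.3.3), trended by intensity, on log2(FPKM + 1), two-sided, Benjamini-Hochberg over all tested genes at 0.05; fold differences are ratios of mean FPKM. The test was tested on simulated data. Exact permutation tests used SciPy 1.17.1. Coordinates are from GENCODE M21 (GRCm38), and promoters from RefSeq. Depth was estimated from single-exon genes of 100 to 1000 bases, where the lowest values were read as 1 fragment, and a member's fragments from that depth and its exon length; both are estimates. Replicates differed by 2.62 to 3.0 times counting noise and were counted separately. The members and lists were chosen with earlier results of these data known. The text names the 10 members, the tested ligands and receptors, up to 5 genes of each list in each direction with the smallest p, the 3 genes with profiles nearest to the members with the largest rise and fall, and class II genes; some genes and sequences are not reported here. Irf1, Irf3, Zfp36, Rela, Relb, Nfkb1, Nfkb2, Adam10, the proteases under the minimum and the marker genes fall outside this rule. They were chosen after their values had been seen.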

Additional observations from a re-analysis of the deposited data

How the results depend on the processing

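The calls of 8 of the 9 tested members kept their direction and stayed past the threshold under every alternative run in which they were tested: a replicate block, each library left out, a pseudocount of 0.1, no minimum or 5 FPKM, quantile, upper-quartile and 2 summed-FPKM scalings, and limma without trend or with robust moderation. Ccl9 had log2 changes of -0.0865 with quantile normalization and -0.166 with scaling to summed FPKM, and between 0.00 and 0.06 with a library left out. Same-numbered libraries had correlations of -0.092, -0.004 and -0.035 in their deviations, and differently numbered ones -0.031 to 0.073. With 3 libraries per group these values cannot decide whether the numbers pair the libraries. With the replicate block 7 members were higher and 1 lower, and 2856 genes were higher and 3782 lower over all. Scaling to summed FPKM gave 1855 higher and 6319 lower genes over all, 2 members lower, 7 signalling genes higher and 3 regulators lower. Scaling without immunoglobulin genes gave 4901 higher and 2131 lower genes, 6 signalling genes lower and 0 regulators lower. With no minimum 6 other ligands, 14 receptors and 3 proteases were higher, and with a minimum of 5 FPKM 2 receptors and 1792 genes were higher; these minima test other numbers of genes. Depth limits Cxcl16 and Cxcl12 most, at an estimated 3 to 11 and 74 to 101 fragments in the MHCII-lo libraries. Leaving out a library moved none of these counts by over 1.5 times.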

Other observations

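The ligands named here lay under the expression minimum and were chosen after seeing their values. Cxcl9, an interferon-gamma-induced ligand of Cxcr3, was at 0.57, 0.38 and 0.31 FPKM in MHCII-hi and was listed at 0, 0.01 and 0 FPKM in MHCII-lo, an estimated 21 to 55 fragments against at most 1. Ccl22, a dendritic cell ligand of Ccr4, was at 0.22, 0.14 and 0.26 FPKM in MHCII-hi and was listed at 0 in all MHCII-lo libraries, as was Cxcl14, which was at 0.16, 0.19 and 0.21 FPKM in MHCII-hi. Cxcl3, a Cxcr2 ligand like Cxcl2, was at 0.45, 0.60 and 0.77 FPKM against 0.13, 0.19 and 0.15 FPKM. The groups did not overlap for these 4 genes, which were picked from 19 ligands under the minimum. Among all tested genes 65.8% did not overlap. Ccl7, Ccl24, Ccl27a, Cxcl1 and Cxcl5, also under the minimum, overlapped. Every MHCII-hi library had more symbols above 0 than any MHCII-lo library, at 21745 to 23080 against 20586 to 20862. Ccl25, whose end overlaps Elavl1 on the opposite strand, was at 0.48 to 0.50 FPKM against 0.21 to 0.37 FPKM, and Ccl17, at 0.43 to 0.92 FPKM against 0 to 0.71 FPKM, overlapped. Ccl8 and Cxcl13 were listed at 0 in all 6 libraries.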
